A study of Homo sapiens with 15 samples.

Results

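TAGLN, TAGLN2, ACTA2, CNN1, CNN2, MYL9, TPM1, TPM2, ACTN1 and SRF are genes of the actin cytoskeleton and the transcription factor SRF itself. These 10 genes were taken by symbol from a table of 61552 listed genes, and all 10 were found by their Ensembl identifiers. The set was chosen by the counts of TAGLN, which were known to be lower with cSNX1.3 and with erlotinib than with EGF alone, so in both of those comparisons, and in cSNX1.3 against erlotinib, which uses the same libraries, the values of the 10 genes are given as a description, without p-values.

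The RNA came from MDA-MB-468, an established human breast cancer cell line that carries a large amount of the epidermal growth factor receptor (EGFR), and was sequenced in 15 libraries, 3 per group. In the drug experiment, cells without serum for 12 h received 10 ng/mL EGF, either alone (EGF), with 10 μM cSNX1.3, a peptide that keeps EGFR from binding Sorting Nexin 1, or with 15 μM erlotinib, an inhibitor of the EGFR kinase, for 12 h. In the line experiment, endogenous EGFR was lowered by a lentiviral short hairpin RNA switched on with 1 mM IPTG, and an EGFR-GFP fusion was introduced, either wildtype (WT) or with basic residues of its nuclear localization sequence changed to aspartic acid (ΔNLS). These cells were also given EGF, and its dose and time are not stated for these libraries, nor is the number of clones behind each line. Every group therefore received EGF, and neither unstimulated cells nor a control peptide are among these libraries. All results come from 1 cell line, and the drug and line experiments differ in more than the receptor, so a difference between them cannot be told apart from a difference between the lines.

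Actin filaments are bundled, crosslinked and stabilized by proteins such as calponins, transgelins, tropomyosins and alpha-actinins. SRF is the DNA-binding factor that many of their genes depend on. It binds a short element called the CArG box, either with the MRTF cofactors, which respond to free actin monomers, or with ternary complex factors such as ELK1, which respond to ERK signalling. TAGLN, also called SM22 alpha, is a widely used SRF target and an early marker of smooth muscle, and carcinoma cells can express it too.

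Library totals ranged from 22915676 to 35900649 counts, and every pair of replicates differed by more than sampling noise (chi-square per degree of freedom 2.60 to 22.3), so no library was counted as a copy of another. The labels do not say whether replicates were separate cultures, so the p-values measure only the spread between these samples, which may be technical. Levels are given in CPM, the counts after edgeR's TMM scaling has put libraries of unequal depth on 1 scale, and log2 fold changes, their standard errors and the p-values come from edgeR's quasi-likelihood fit. A gene was called where its p-value, adjusted by the Benjamini-Hochberg method over all genes tested, was under 0.05. All 12 epithelial markers were above 1 CPM in every group. Of 5 leukocyte markers, PTPRC averaged 0.0837 CPM over the 15 libraries. CD14 alone reached 1 CPM, with group means from 10.9 CPM with cSNX1.3 to 40.1 CPM with erlotinib. EGFR counts were between 4367 and 6565 CPM in the drug libraries and between 1149 and 1745 CPM in the line libraries. With cSNX1.3 they were 5673 to 6565 CPM and with EGF 4367 to 4980 CPM, without overlap. That difference was not called (log2 fold change 0.38, edgeR's adjusted p = 0.0622). EGFR counts were higher in ΔNLS than in WT (log2 fold change 0.37, edgeR's adjusted p = 0.00367). The introduced fusion carries the EGFR coding sequence as well, so these counts do not check the knockdown.

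The CArG box is shown because SRF binds it and because 3 of the 8 genes searched carry one close to a transcription start. RefSeq promoter windows (GRCh38.p14) of 250 bases before to 50 after each start were found for 8 of the 10 genes, in 16 windows. TAGLN and MYL9 had no window and were not searched. The CArG box, which reads in the same form on both strands, was present in 454 of 35116 windows of all genes (1.29%), in 3 of the 16 windows (18.8%) and in 10 of the 61 windows (16.4%) of other actin cytoskeleton and contractile genes. SRF itself has 2 of them, 30 and 10 bases upstream of its start. In CNN2 the element begins 89 bases upstream, and in ACTN1 171 bases upstream of 1 of its starts. In the sequences below, each read 5′ to 3′ on the strand of its gene, capitals mark the CArG box and lower case its 10-base flanks. FLNA (filamin A) and SMTN (smoothelin) are added as examples from the other actin cytoskeleton and contractile genes. Further genes of that list with a CArG box, MYLK among them, are not shown.
SRF, chr6:43171229-43171258, plus strand: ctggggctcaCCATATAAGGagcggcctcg
SRF, chr6:43171249-43171278, plus strand: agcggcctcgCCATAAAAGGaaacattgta
CNN2, chr19:1026509-1026538, plus strand: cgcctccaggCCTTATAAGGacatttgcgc
ACTN1, chr14:68977718-68977747, minus strand: acgctcatgtCCAAAAATGGtaacattcat
FLNA, chrX:154374709-154374738, minus strand: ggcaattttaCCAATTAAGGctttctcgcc
SMTN, chr22:31084942-31084971, plus strand: cggggccgggCCATATAAGGaaaagctagg
A match is a run of letters and not a measured binding site, and windows without one say nothing about SRF at those genes.

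The levels of the 10 genes spanned a wide range. Per kilobase of the canonical transcript, with EGF, TAGLN2 was highest at 872 CPM per kb, followed by TPM1 at 355, ACTN1 at 161, CNN2 at 67.8 and TPM2 at 29.1 CPM per kb. SRF stood at 17.3, TAGLN at 7.56 and MYL9 at 1.15 CPM per kb, whereas CNN1 (0.288) and ACTA2 (0.0749) were close to 0. TAGLN was thus a low gene beside its relative TAGLN2 in these cells. The canonical transcript of TAGLN runs to 3786 bases and 47.76% of the gene's exon bases are shared with other listed genes, so its level per kb depends on the length used. With EGF, TAGLN was at 4.37 CPM per kb over all exons and 47.4 over the coding bases. Over coding bases TPM2 stood at 40.6, SRF at 48.0 and TAGLN2 at 2008 CPM per kb. The order of TAGLN and TPM2 therefore changes with the length. TAGLN stays below SRF, close to it over coding bases only, and TAGLN2 stays far above both.

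**Figure D1:**
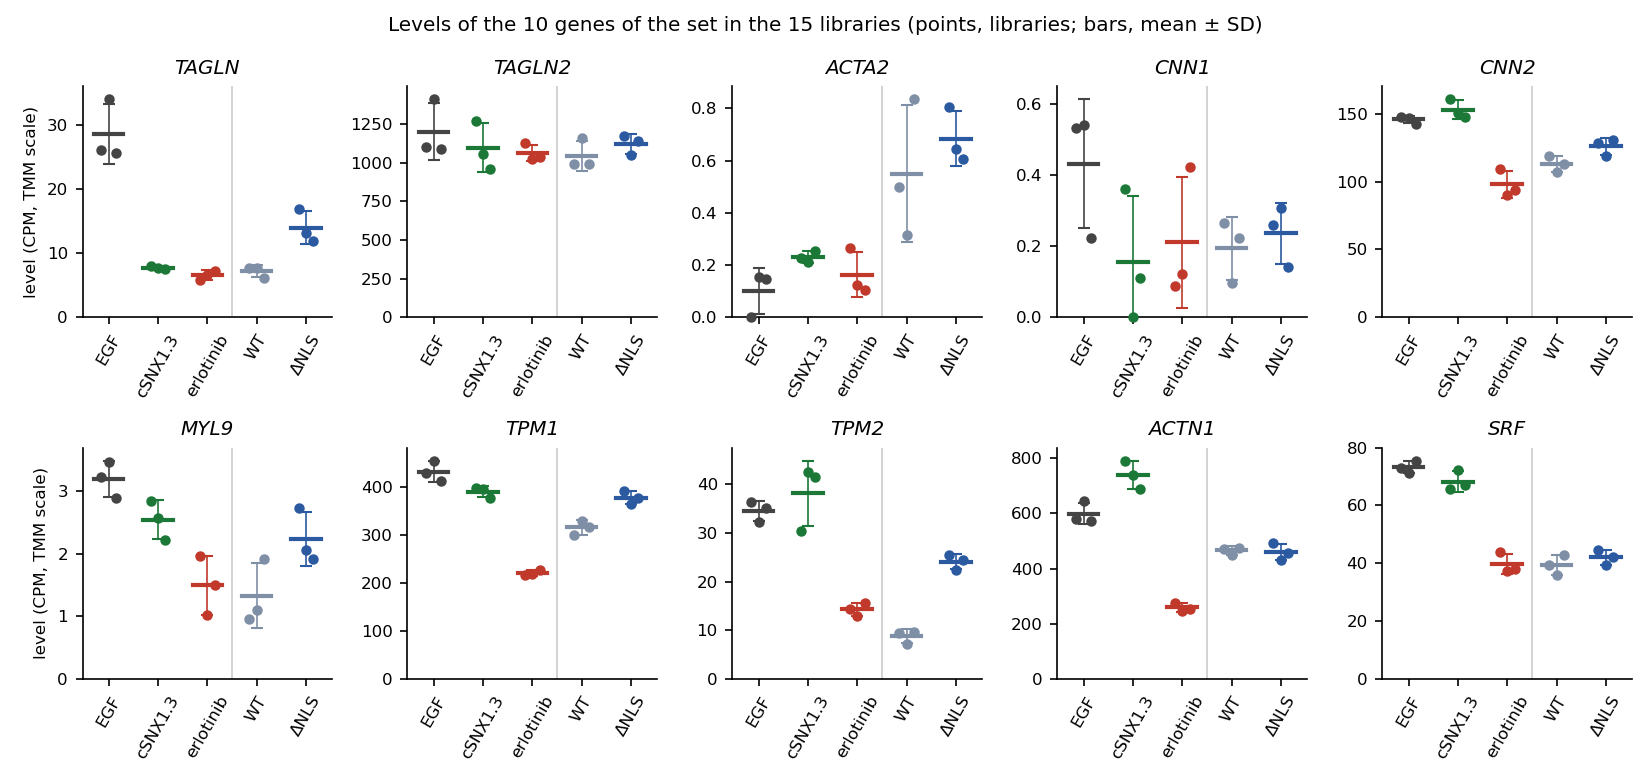
Level of each of the 10 genes (y axis, CPM on the TMM scale, each panel with its own range from 0) in the 5 groups (x axis); points are libraries, and bars are the mean ± SD of 3 libraries, with lower ends below 0 not drawn. TAGLN lies at 25.6 to 34.0 CPM with EGF and at no more than 8.03 CPM with cSNX1.3, erlotinib or in WT, while TPM2 is lowest in WT and TAGLN2 overlaps in all groups.

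TAGLN (ENSG00000149591; GRCh38, chromosome 11, 117199370 to 117207464, plus strand, 5 exons in its canonical transcript) encodes transgelin, an actin-binding protein of the calponin family. Its level was 26.2, 34.0 and 25.6 CPM with EGF, 8.03, 7.63 and 7.46 CPM with cSNX1.3, and 5.82, 6.61 and 7.30 CPM with erlotinib. All EGF libraries were above all libraries of both treatments. In the line experiment TAGLN was 7.70, 7.74 and 6.21 CPM in WT and 16.9, 13.2 and 11.9 CPM in ΔNLS. Here too the groups did not overlap, with ΔNLS higher. The order of group means was EGF, ΔNLS, cSNX1.3, WT and erlotinib. EGF, ΔNLS and cSNX1.3 were separated from each other, while cSNX1.3, WT and erlotinib overlapped with their neighbours.

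TAGLN was 3.68-fold lower with cSNX1.3 than with EGF (log2 fold change -1.88, standard error 0.13) and 4.28-fold lower with erlotinib than with EGF (log2 fold change -2.10, standard error 0.13). Both comparisons share the EGF libraries, and both are the contrasts for which the gene was chosen. Set against each other, cSNX1.3 and erlotinib differed in TAGLN by 0.22 on the log2 scale (95% interval -0.07 to 0.51). The ΔNLS and WT libraries are not in those contrasts, but the genes were chosen with earlier results of these data known. TAGLN rose 1.96-fold in ΔNLS relative to WT (log2 fold change 0.97, standard error 0.14, edgeR's adjusted p = 3.04e-05), a direction opposite to that with cSNX1.3. Whether the ΔNLS and cSNX1.3 differences differ was not tested here.

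Reads were counted without regard to strand, and TAGLN shares exon bases with PCSK7 on the opposite strand and with ENSG00000280143 on its own strand. PCSK7, a proprotein convertase, was between 32.5 and 55.5 CPM and was not called in cSNX1.3 vs. EGF (log2 fold change -0.11), erlotinib vs. EGF (-0.24) or ΔNLS vs. WT (-0.11, edgeR's adjusted p = 0.321). ENSG00000280143 reached at most 0.0819 CPM in any library. How many TAGLN counts came from shared bases was not tested.

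TAGLN2 (ENSG00000158710; chromosome 1, 159918107 to 159925507, minus strand), the broadly expressed relative of TAGLN, did not follow it. TAGLN2 was 1099, 1411 and 1086 CPM with EGF, 1272, 1058 and 960.1 CPM with cSNX1.3, and 1124, 1027 and 1035 CPM with erlotinib. In the lines it was 988, 1157 and 989 CPM in WT and 1174, 1047 and 1137 CPM in ΔNLS. The libraries of every neighbouring pair of groups overlapped. TAGLN2 differed from EGF by -0.11 with cSNX1.3 and by -0.15 with erlotinib on the log2 scale (standard error 0.12 each), and ΔNLS from WT by 0.11 (95% interval -0.07 to 0.29, edgeR's adjusted p = 0.319). The interval still includes changes of up to 0.29.

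Within a library, the log2 ratio of TAGLN to TAGLN2 was taken from log2 CPM with a small count added (prior count of 2). It depends on scaling between libraries only through that added count. The ratio was -5.39, -5.37 and -5.40 with EGF, -7.29, -7.10 and -6.99 with cSNX1.3, and -7.58, -7.27 and -7.13 with erlotinib. In the lines the log2 ratio was -6.99, -7.21 and -7.30 in WT and -6.11, -6.30 and -6.57 in ΔNLS. The ratio separated EGF from both treatments and ΔNLS from WT, with no overlap in either experiment. The second EGF library, which had the highest CPM of both genes, did not stand apart in the ratio.

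CNN2 (ENSG00000064666; chromosome 19, 1026586 to 1039068, plus strand) and CNN1 encode calponins, which bind actin filaments and, like transgelin, carry a calponin homology domain. CNN2 was 148, 147 and 143 CPM with EGF, 161, 150.2 and 148 CPM with cSNX1.3, and 109.5, 90.2 and 93.9 CPM with erlotinib. In the lines CNN2 was 119, 107 and 113 CPM in WT and 128, 119 and 131 CPM in ΔNLS. Erlotinib libraries were the lowest of the drug experiment, and the cSNX1.3 and EGF libraries overlapped. CNN2 differed from EGF by 0.08 (standard error 0.09) with cSNX1.3 and by -0.55 (standard error 0.09) with erlotinib on the log2 scale. In ΔNLS vs. WT its log2 fold change was 0.17, and although the groups did not overlap it missed the threshold (edgeR's adjusted p = 0.0622). CNN1, the smooth muscle calponin, had 0 to 14 counts per library and overlapped in all neighbouring groups, so no difference in it was detectable at this depth.

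TPM1 and TPM2 encode tropomyosins, coiled coils that lie along the actin filament and govern which proteins can reach it. TPM1 (ENSG00000140416; chromosome 15, 63042620 to 63071915, plus strand) was 428, 454 and 412 CPM with EGF, 397, 395 and 377 CPM with cSNX1.3, and 216, 219 and 227 CPM with erlotinib. TPM2 (ENSG00000198467; chromosome 9, 35681992 to 35690056, minus strand) was 36.4, 32.4 and 35.1 CPM with EGF, 30.5, 42.6 and 41.5 CPM with cSNX1.3, and 14.5, 13.0 and 15.5 CPM with erlotinib. Both had their 3 lowest drug libraries with erlotinib. With cSNX1.3, TPM1 lay just below EGF without overlap, and TPM2 overlapped EGF.

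In the lines TPM1 was 299, 329.5 and 316 CPM in WT and 391.6, 364 and 376 CPM in ΔNLS. TPM2 was 9.53, 7.14 and 9.64 CPM in WT and 25.6, 22.5 and 24.4 CPM in ΔNLS. Every ΔNLS library was above every WT library for both genes. TPM2 rose 2.77-fold in ΔNLS (log2 fold change 1.47, standard error 0.11, edgeR's adjusted p = 3.15e-08), which was the largest difference of the 9 genes tested there. TPM1 rose by 0.27 on the log2 scale (standard error 0.07, adjusted p = 0.00536). Relative to EGF, TPM2 differed by 0.15 with cSNX1.3 and by -1.25 with erlotinib, and TPM1 by -0.13 and -0.94 on the log2 scale. Tropomyosin genes resemble each other and 22.69% of the TPM1 exon bases overlap other listed genes, so some reads could have been assigned to another gene or left out.

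ACTN1 (ENSG00000072110; chromosome 14, 68874128 to 68979440, minus strand) encodes alpha-actinin-1, which crosslinks actin filaments and anchors them at adhesions. ACTN1 was 581, 644 and 574 CPM with EGF, 792, 739 and 688 CPM with cSNX1.3, and 277, 247 and 254 CPM with erlotinib. The 3 groups did not overlap, with cSNX1.3 above EGF and erlotinib below it. ACTN1 differed from EGF by 0.32 with cSNX1.3 (95% interval 0.12 to 0.51, not called by edgeR in the 9 drug libraries but called by DESeq2) and by -1.18 with erlotinib (standard error 0.09) on the log2 scale. Between the treatments it was 2.83-fold higher with cSNX1.3 than with erlotinib (log2 fold change 1.50, standard error 0.10). In the lines it was 473, 449 and 476 CPM in WT and 492, 432 and 457 CPM in ΔNLS, a log2 fold change of -0.01 (95% interval -0.16 to 0.14, adjusted p = 0.942).

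MYL9 (ENSG00000101335; chromosome 20, 36541497 to 36551447, plus strand), a regulatory light chain of nonmuscle and smooth muscle myosin, was low. MYL9 was 3.23, 3.48 and 2.90 CPM with EGF, 2.84, 2.57 and 2.22 CPM with cSNX1.3, and 1.97, 1.02 and 1.51 CPM with erlotinib. In the lines it was 0.963, 1.11 and 1.92 CPM in WT and 2.73, 2.06 and 1.92 CPM in ΔNLS. The drug groups did not overlap, whereas the highest WT library and the lowest ΔNLS library were at the same rounded level. MYL9 differed from EGF by -0.32 (standard error 0.22) with cSNX1.3 and by -1.04 (standard error 0.23) with erlotinib on the log2 scale. It was called higher in ΔNLS than in WT (log2 fold change 0.75, edgeR's adjusted p = 0.0255). That call rests on 29 to 95 counts per library and was lost without ΔNLS replicate 1 (adjusted p = 0.141), WT replicate 1 (0.0969) or WT replicate 2 (0.0730).

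ACTA2, the actin of vascular smooth muscle, had 0 to 9 counts per drug library and was too low to be tested there. In the lines ACTA2 had 15, 10 and 30 counts in WT and 28, 21 and 17 counts in ΔNLS, which overlapped (log2 fold change 0.31, standard error 0.36, edgeR's adjusted p = 0.518). Reads could have been split between ACTA2 and near-identical actin genes, and 36.23% of its exon bases overlap other genes, among them FAS on the opposite strand.

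SRF (ENSG00000112658; chromosome 6, 43171269 to 43181506, plus strand) was 72.8, 71.3 and 75.5 CPM with EGF, 65.6, 72.3 and 66.9 CPM with cSNX1.3, and 43.8, 37.2 and 38.1 CPM with erlotinib. In the lines SRF was 39.3, 35.9 and 42.9 CPM in WT and 44.6, 39.5 and 42.1 CPM in ΔNLS. The erlotinib libraries were below both other drug groups, and the remaining neighbours in these experiments overlapped. SRF differed from EGF by -0.09 with cSNX1.3 and by -0.86 with erlotinib on the log2 scale (standard error 0.09 each). In ΔNLS vs. WT its log2 fold change was 0.11 (95% interval -0.07 to 0.28, edgeR's adjusted p = 0.320).

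Counted over the set, 9 of the 10 genes could be tested in the drug experiment, all but ACTA2. In cSNX1.3 vs. EGF 1 of the 9 was called, TAGLN, beside 6.07% of all 15738 genes tested (2.69% called lower, 3.38% called higher). In 4 of the 9 (TAGLN, TPM1, MYL9 and ACTN1) the libraries of the groups did not overlap, beside 25.7% of all genes, and the median log2 fold change of the 9 was -0.11 beside 0.00 over all genes. In erlotinib vs. EGF 7 of the 9 were called, all lower, beside 44% of all genes called (21.2% lower, 22.8% higher), and the same number did not overlap, beside 52.2% of all genes, with a median of -1.0 beside 0.01. TAGLN2 and CNN1 were the 2 not called. These calls come from contrasts used to choose the set, and nothing is read from them.

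In the direct comparison of cSNX1.3 with erlotinib, 6 of the 9 genes were called higher with cSNX1.3, beside 56.1% of all genes called (27.6% higher, 28.5% lower). With TAGLN, 7 of the 9 did not overlap, beside 60.2% of all genes. The 6 were ACTN1, TPM2 (log2 fold change 1.40, standard error 0.13), TPM1 (0.81, standard error 0.08), SRF (0.77, standard error 0.09), MYL9 (0.72, standard error 0.23) and CNN2 (0.63, standard error 0.09). TAGLN2 (0.03, 95% interval -0.22 to 0.29) and CNN1 (-0.46) were not called, and the MYL9 call was lost without erlotinib replicate 2. These libraries also served to choose the set, so nothing is read from these calls either.

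In ΔNLS vs. WT, where CNN1 was too low to be tested, 4 of 9 genes were called, all higher, namely TPM2, TAGLN, MYL9 and TPM1. This stands beside 41.4% of 15805 genes called (20.4% higher, 21% lower). In 4 of the 9 (TPM2, TAGLN, TPM1 and CNN2) the groups did not overlap, beside 52.3% of all genes, and the median of the 9 was 0.27 beside 0.01 over all genes. The share of the set that was called, and the share without overlap, were close to those of all genes.

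**Figure D2:**
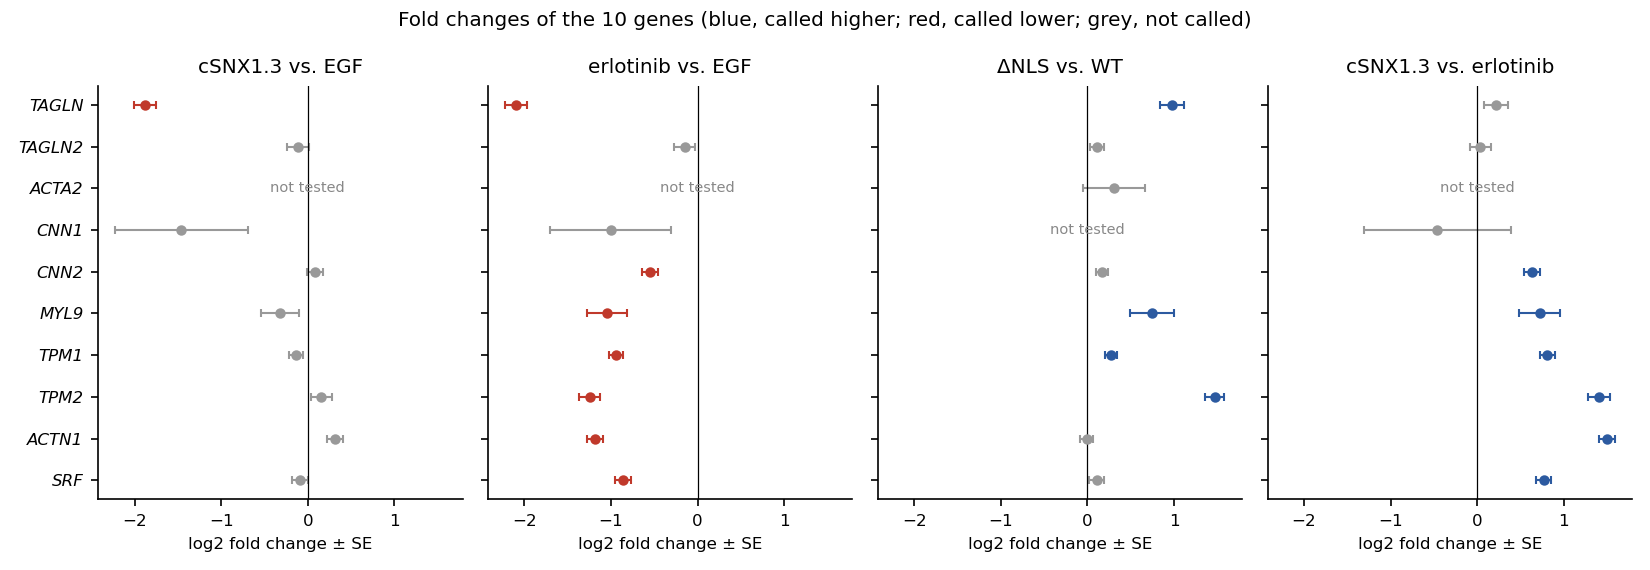
Log2 fold change (x axis) of each of the 10 genes (y axis) in the 4 comparisons, with bars of 1 standard error; blue marks genes called higher, red genes called lower and grey genes not called (edgeR's adjusted p under 0.05), and a gene too low to be fitted is marked as not tested. TAGLN lies at -1.88 and -2.10 in the drug comparisons with EGF and at 0.97 in ΔNLS vs. WT, and ACTN1 lies at 0.32, -1.18 and -0.01.

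Other genes of the pathway were taken from lists of genes outside the set. Of 27 tested genes for other actin cytoskeleton and contractile proteins, 3 rose in cSNX1.3 vs. EGF and 0 fell, beside 6.07% of all genes called, with a median log2 fold change of 0.15. These were ZYX (zyxin, an adhesion protein; 0.44, edgeR's adjusted p = 0.00828), PDLIM7 (a PDZ and LIM domain protein; 0.44, adjusted p = 0.0241) and SMTN (0.41, adjusted p = 0.0487). In erlotinib vs. EGF 21 of the 27 fell and 0 rose, beside 44% of all genes called and 21.2% called lower, with a median of -0.61. ACTB, the main cytoplasmic actin, fell from 5213 ± 784 to 2154 ± 162 CPM (SD, n = 3 each; log2 fold change -1.25, edgeR's adjusted p = 1.83e-06). FLNA, which crosslinks actin filaments, fell from 4623 ± 45.6 to 1981 ± 276 CPM (log2 fold change -1.20, edgeR's adjusted p = 9.65e-07). In the direct comparison 21 were higher with cSNX1.3 and 1 was higher with erlotinib, with a median of 0.76. This stands beside 56.1% of all genes called there (27.6% higher with cSNX1.3, 28.5% lower).

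Of the same 27 genes, 6 were higher and 7 lower in ΔNLS vs. WT, with a median of -0.07, beside 41.4% of all genes called (20.4% higher, 21% lower). The share called was near that of all genes. SMTN rose from 13.9 ± 2.56 to 30.5 ± 0.747 CPM (SD, n = 3 each; log2 fold change 1.14, edgeR's adjusted p = 4.64e-07). MYLK, the kinase that phosphorylates myosin light chains, rose by 1.0 on the log2 scale (edgeR's adjusted p = 8.61e-05). LIMA1, which stabilizes actin bundles, fell from 196 ± 3.08 to 92.9 ± 3.04 CPM (SD, n = 3 each; log2 fold change -1.07, edgeR's adjusted p = 2.74e-09).

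SRF works with cofactors, and 7 of 9 listed ones were high enough to be tested. In cSNX1.3 vs. EGF 1 rose, beside 6.07% of all genes called, and in erlotinib vs. EGF 3 fell, beside 44% called and 21.2% called lower, and in ΔNLS vs. WT 2 fell, beside 41.4% called and 21% called lower. ELK3, a ternary complex factor, rose with cSNX1.3 (log2 fold change 0.48, edgeR's adjusted p = 0.0205) and fell with erlotinib (-0.57, adjusted p = 0.00112), both relative to EGF. ELK1 (-0.30, edgeR's adjusted p = 0.0199) and MRTFA (-0.24, edgeR's adjusted p = 0.0276) also fell with erlotinib. The other 4 were not called there, with log2 fold changes of 0.27 for MRTFB, 0.11 for ELK4, 0.09 for SCAI and -0.18 for FHL2. FHL2, a LIM protein that can bind SRF, in ΔNLS vs. WT fell by 0.68 and ELK3 fell by 0.36 on the log2 scale (edgeR's adjusted p = 4.75e-07 and 0.00521). MYOCD, the smooth muscle cofactor of SRF, was at 0 CPM in every group mean but that of erlotinib, where it was 0.0272 CPM.

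The early-response genes, which SRF serves together with ternary complex factors, were split with cSNX1.3. Of 11 tested, EGR1 (log2 fold change -1.75, edgeR's adjusted p = 0.000567) and FOS (-1.20, adjusted p = 0.00255) fell and FOSL1 rose (1.13, adjusted p = 5.02e-06), all transcription factors downstream of growth factor signalling. These 3 stand beside 6.07% of all genes called (2.69% lower, 3.38% higher), and the other 8 were not called. With erlotinib 10 of the 11 fell, beside 21.2% of all genes called lower, with a median of -1.22, among them FOSL1 (-4.41, edgeR's adjusted p = 6.04e-12), EGR1 (-3.69, adjusted p = 3.62e-07) and FOS (-3.18, adjusted p = 1.87e-07). Of 10 tested in ΔNLS vs. WT, 2 rose and 3 fell, beside 41.4% of all genes called, with FOSL1 at 0.88 (edgeR's adjusted p = 8.61e-05), IER3 at 0.85 (adjusted p = 1.70e-07) and FOS at -0.60 (adjusted p = 0.00137).

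TGF-beta is a known inducer of TAGLN in other cells, and 17 of 18 genes of its pathway were tested. The gene left out is SMAD4, the common mediator of the pathway, which was at 0.0421 to 0.246 CPM over the 15 libraries and is named here after its values were seen. With cSNX1.3 2 rose and 0 fell relative to EGF, beside 6.07% of all genes called and 3.38% called higher. These were SMAD3 at 0.47 (edgeR's adjusted p = 0.00542) and PMEPA1 at 0.45 (adjusted p = 0.00318). With erlotinib 3 rose and 11 fell, beside 44% of all genes called, among the latter LTBP2 (-1.86, edgeR's adjusted p = 3.01e-09), SMAD6 (-1.54, adjusted p = 5.28e-06) and TGFB1 (-1.10, adjusted p = 8.41e-06). In ΔNLS vs. WT 3 rose and 6 fell, beside 41.4% of all genes called, with the receptor gene TGFBR2 at -0.97 (edgeR's adjusted p = 3.91e-08). The ligand genes went opposite ways, with TGFB2 at -0.78 (adjusted p = 5.98e-07) and TGFB1 at 0.67 (adjusted p = 1.66e-05).

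**Figure D3:**
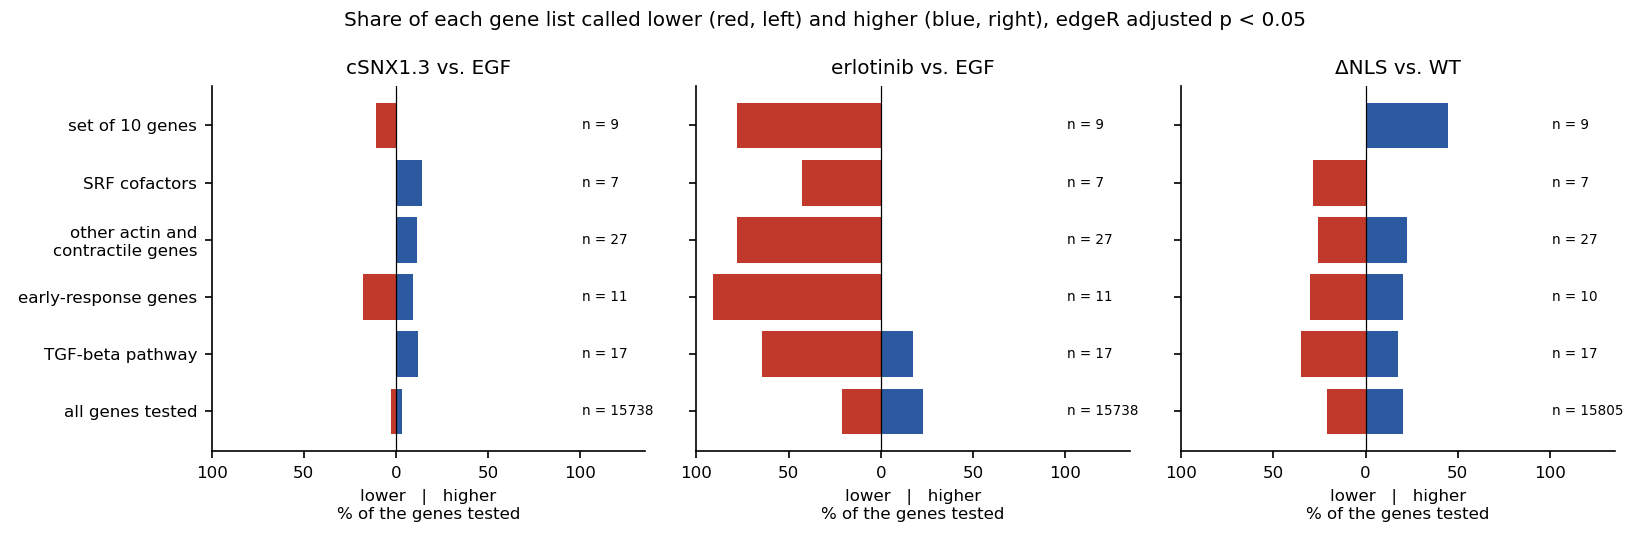
Share of tested genes called lower (red, to the left) or higher (blue, to the right) on the x axis, in percent, for the set of 10 genes, 4 pathway lists and all genes tested (y axis), in 3 panels for cSNX1.3 and erlotinib against EGF and ΔNLS against WT; n is the number of genes tested. In erlotinib vs. EGF 7 of 9 genes of the set and 21 of 27 other actin genes were lower, beside 21.2% of all genes. In cSNX1.3 vs. EGF 1 of 9 was lower, beside 2.69% of all genes, and 3 of 27 were higher, beside 3.38%. The set was chosen from these contrasts, so nothing is read from its counts in them.

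Markers of other cell types were measured beside these genes, because TAGLN, ACTA2, CNN1 and MYL9 are high in smooth muscle, pericytes and fibroblasts. MYH11, DES and LMOD1, from the list of smooth muscle and pericyte markers, had group means of at most 0.238, 0.666 and 0.530 CPM. Of 8 fibroblast markers, COL1A1 alone was above 1 CPM in the group means, and the summed level of the list was 8.68 to 21.6 CPM per library. Of 8 smooth muscle and pericyte markers, 1 or 2 reached a group mean of 1 CPM, and nearly all of their summed level came from NOTCH3. The sum was 596 to 712 CPM in the EGF libraries, 606 to 659 in those with cSNX1.3, 840 to 1056 with erlotinib, 329 to 415 in WT and 538 to 576 CPM in ΔNLS. This sum was therefore higher with erlotinib, where TAGLN was lower, and higher in ΔNLS, where TAGLN was higher. NOTCH3 is also expressed by breast cancer cells. Of 5 leukocyte markers, CD14 alone reached 1 CPM, and their sum was 13.9 to 19.1 CPM in the EGF libraries, 9.14 to 13.3 CPM with cSNX1.3, 37.9 to 41.7 CPM with erlotinib, 25.8 to 37.1 CPM in WT and 37.5 to 41.9 CPM in ΔNLS. The summed epithelial markers were 15507 to 17210 CPM with erlotinib and 29697 to 35841 CPM with cSNX1.3 against 25023 to 31230 CPM with EGF, and 15517 to 18759 CPM in ΔNLS against 24364 to 27257 CPM in WT. Keratins make up most of this sum, and EGFR, which was altered in the lines, is in it. With erlotinib 7 of the 12 were called lower and 2 higher (CDH1 at 0.47, CDH3 at 0.39), beside 44% of all genes called. KRT19 (-0.32), EPCAM (-0.12) and EGFR (0.00) were not called there. With cSNX1.3 3 were called higher and 1 lower, beside 6.07% of all genes. In ΔNLS vs. WT 1 was called higher and 8 lower, beside 41.4% of all genes. What part these markers have in the differences of the 10 genes was not tested, and in a bulk sample fewer cells of a type and less RNA per cell cannot be told apart.

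Among 12016 protein-coding genes that averaged 1 CPM or more, the 5 whose log2 CPM followed TAGLN most closely over the 15 libraries were ENC1 (Pearson r = 0.87), VASH2 (0.86), FOXI1 (0.86), MEX3B (0.84) and ORAI2 (0.81). These libraries share their groups and scaling, so the coefficients describe the order and are given without a p-value, and the pattern of the 5 genes is what chose them. ENC1, which encodes an actin-binding kelch protein, was 59.8 ± 2.503 CPM with EGF, 40.4 ± 1.29 with cSNX1.3, 26.8 ± 2.18 with erlotinib, 26.6 ± 1.55 in WT and 44.5 ± 0.977 in ΔNLS (SD, n = 3 each). VASH2, a tubulin carboxypeptidase, was 10.5 ± 0.947 CPM with EGF, 6.19 ± 0.581 with cSNX1.3, 6.06 ± 1.09 with erlotinib, 5.33 ± 0.961 in WT and 9.53 ± 1.59 in ΔNLS. Among the other genes of the set, r with TAGLN was 0.70 for TPM1, 0.66 for MYL9, 0.55 for CNN1, 0.54 for TPM2, 0.53 for SRF and for TAGLN2, 0.50 for CNN2, 0.39 for ACTN1 and -0.30 for ACTA2.

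**Figure D4:**
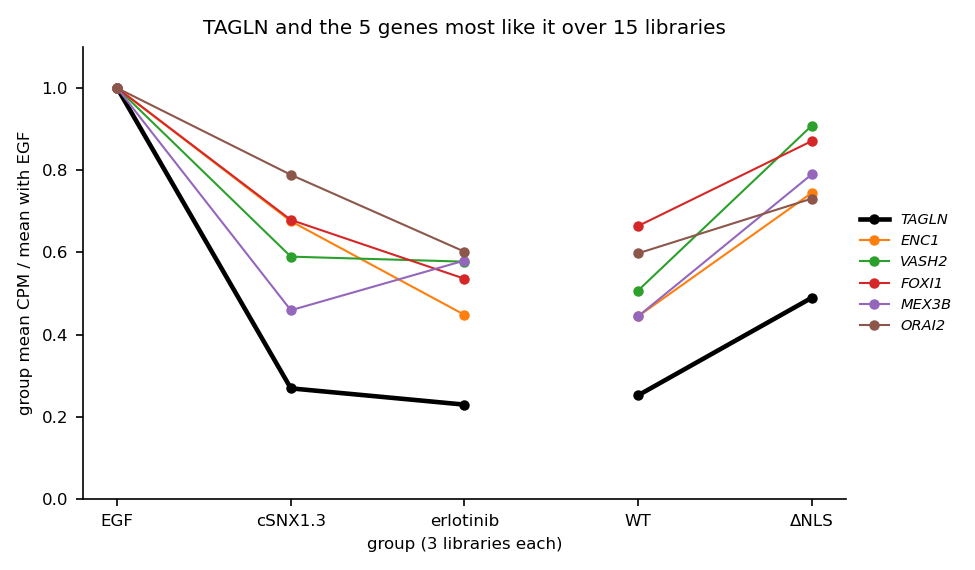
Group mean CPM divided by the mean with EGF (y axis) in the 5 groups (x axis, 3 libraries each) for TAGLN and the 5 genes with the highest Pearson r with it over 15 libraries. Each coloured line is 1 gene, broken between the drug and line experiments. All have their highest mean with EGF, and TAGLN falls further than the others with cSNX1.3 and erlotinib. TAGLN was chosen with these falls known and the 5 genes for their likeness to it, so nothing is read from this pattern.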

How the data were processed

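RNA sequencing counts of 15 MDA-MB-468 libraries were used, with groups taken from the sample labels. According to the methods of the study, the authors trimmed reads with TrimGalore, aligned them to GRCh38 with STAR and counted read pairs per gene with featureCounts without regard to strand. The authors deposited these counts without normalization, and the annotation release is not stated. Here 61399 of 61552 gene IDs were matched to GENCODE 44 and 153 were not. Counts were tested in R 4.3.3 with edgeR 4.0.16 (TMM scaling, filterByExpr by group, robust quasi-likelihood fit) in the 9 drug libraries (15738 genes) and the 6 line libraries (15805 genes). P-values were adjusted over all genes tested (Benjamini-Hochberg), and a call needed an adjusted p under 0.05. CPM were scaled by TMM over all 15 libraries. Standard errors come from the fit, SDs from replicates. The genes, lists and tests were chosen with earlier results of these data known. Named genes are the 10 of the set, EGFR, the 5 most like TAGLN (log2 CPM with a prior count of 2), and, from each list and comparison, genes among the up to 3 largest called changes that averaged 1 CPM or more without overlap of the groups. Genes outside this rule (PCSK7, ENSG00000280143, MYOCD and single markers) are named for their overlap or role. As alternatives, DESeq2 1.42.0 replaced the test, its size factors replaced TMM, genes were left unfiltered or needed 10 counts per library, all 15 libraries or just the pair of groups were fitted, replicate numbers were used as a block, the threshold was set to 0.01, and each replicate was left out. Others were a prior count of 0.5 and experiment means subtracted for likeness to TAGLN, and other lengths, of which the length over all exons was chosen after seeing the data. Among the lists, 1 more entered the counts of called list genes and is not reported here.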

Additional observations from a re-analysis of the deposited data

How the results depend on the processing

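With all libraries kept, the 238 recomputed log2 fold changes of the 10 genes kept their direction, and 235 also kept their side of the threshold. The exceptions were ACTN1 in cSNX1.3 vs. EGF, which was called by DESeq2 and in the fit of all 15 libraries and made the count of called genes 2 in place of 1, and MYL9 in ΔNLS vs. WT with the replicate block (0.77, edgeR's adjusted p = 0.0528). The cause was not tested. Replicate numbers did not pair the libraries (correlations of same-numbered libraries between -0.41 and 0.44; 2, 2, 0 and 4 of 6 libraries correlated best with their own number in the comparisons of cSNX1.3 and then erlotinib with EGF, ΔNLS with WT and cSNX1.3 with erlotinib). With the replicate block 1, 7, 3 and 6 genes of the set and 11, 52, 35 and 60 genes of the lists were called, with medians of the set of -0.12, -1.03, 0.27 and 0.74. At an adjusted p under 0.01, 7 list genes were called in cSNX1.3 vs. EGF, a smaller number by construction, in place of 11. Of the 5 genes most like TAGLN, 2 (ENC1 and FOXI1) were among the 5 after experiment means were subtracted. Leaving out 1 library gave 1 to 1 called genes of the set in cSNX1.3 vs. EGF, 7 to 7 in erlotinib vs. EGF, 3 to 5 in ΔNLS vs. WT and 5 to 6 in cSNX1.3 vs. erlotinib, with medians of -0.16 to -0.0780, -1.11 to -0.85, 0.18 to 0.29 and 0.57 to 0.79, and 7 to 10, 47 to 52, 31 to 45 and 55 to 60 called list genes, with 7 in cSNX1.3 vs. EGF both without cSNX1.3 replicate 2 and without EGF replicate 1. Beside the MYL9 calls given above, CNN2 (0.21, edgeR's adjusted p = 0.0441) without ΔNLS replicate 2 and TAGLN2 (0.19, 0.0256) without WT replicate 2 were called in ΔNLS vs. WT. Signs turned only for genes not called and near 0 or low, namely TAGLN2 in cSNX1.3 vs. EGF (-0.239 to 0.00137, positive without EGF replicate 2), TAGLN2 in cSNX1.3 vs. erlotinib (-0.0873 to 0.126), ACTN1 in ΔNLS vs. WT (-0.0548 to 0.0355) and CNN1 in cSNX1.3 vs. erlotinib (-1.77 to 0.53). TAGLN stayed between -1.94 and -1.75, -2.18 and -1.98, and 0.82 and 1.08 for cSNX1.3 and erlotinib against EGF and for ΔNLS against WT. Counts of CNN1, ACTA2 and MYL9 limit what can be seen in them at this depth.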
